A study of Rattus norvegicus with 18 samples.

Results

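Neonatal rat ventricular myocytes were compared 4 h and 48 h after phenylephrine to find which genes responded differently to SR9009 at the later time. SR9009 is a synthetic agonist of REV-ERBα and REV-ERBβ, the nuclear receptors that repress transcription as part of the circadian clock. Phenylephrine (PE) is an α1-adrenergic agonist, used on such cultures to make myocytes enlarge. The quantity followed here is the SR9009 minus vehicle difference at 48 h minus the same difference at 4 h, on log2(FPKM + 1), where FPKM is sequenced fragments scaled to transcript length and library size. It is called the change below. It was computed for 10394 of the 17312 genes in the authors' table: those with an estimate above 0 in all 4 groups, lying inside its own bounds, and a mean over the 6 groups of at least 1 FPKM.

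All groups were ventricular myocytes of Sprague-Dawley rat pups of day 2, taken from serum into serum-free medium and pretreated for 24 h with vehicle or SR9009. RNA was collected without PE (0 h), after 4 h of PE or after 48 h of PE, from 3 libraries per group and 18 in all, and 12 of these enter the change. No culture without PE was collected at 4 or 48 h, so the effects of culture time and of PE cannot be told apart. The 48 h cultures were harvested 72 h after SR9009 was first given, against 28 h for the 4 h cultures. The sources used here do not say whether the compound stayed on during PE, how many litters were used, or what the doses were.

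The authors' table holds 1 FPKM value per gene and group with a lower and an upper bound, whose level is not stated, and no value per library. No SD and no test could therefore be computed, and the number of reads behind a value is unknown. A change was called when it was at least 1 in size (2-fold) and the widest range that the bounds of the 4 groups allow did not include 0. Bounds lay a median of about 15% from the value in the 6 groups, and the median half-range of the change was 0.84. Every range given below is that widest range. For genes with low FPKM this scale understates a difference between groups. The change sets such differences against each other, so it can be understated or overstated. For Gsta5 it was -2.68 on this scale and -2.09 with 0.1 added in place of 1.

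As background, hypertrophic growth of cultured myocytes brings back a fetal gene program that includes the natriuretic peptides and skeletal actin, while genes for calcium handling and fatty acid oxidation decline. REV-ERB receptors bind a half-site with an AT-rich flank and recruit corepressors, and their best known direct targets are the clock genes Arntl (BMAL1) and Nfil3. SR9009 has also been described to act on cells that lack both receptors.

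Gene by gene, the SR9009 difference at 4 h bore almost no relation to the difference at 48 h. Across 10385 genes with a 0 h value, the differences at 0 h and 4 h had a Pearson r of 0.59 (Spearman rho 0.52), and 67.6% of genes had the same sign at both times. Between 4 h and 48 h r was 0.05 (rho 0.03) with 51.8% of the same sign, and between 0 h and 48 h r was -0.08 (rho -0.13) with 45.7%. Within each of these 3 comparisons the differences set side by side share no library, but the comparisons share libraries with each other. Genes are not independent replicates, so these values describe the table and carry no p.

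The change was called for 844 genes, 8.12% of those used, with 423 higher (4.07%) and 421 lower (4.05%). Its median over all genes was 0.01, its SD 0.63, and it ran from -3.70 for Bdkrb2 to 5.85 for Dhrs7c. The shares of 4.07% and 4.05% are the background for every count of list members with a called change. SR9009 itself was called for few genes at 4 h, 50 higher (0.481%) and 105 lower (1.01%), and for more at 48 h, 238 higher (2.29%) and 474 lower (4.56%). This lean to lower calls depends on the scaling: 32.3% of calls at 4 h and 33.4% at 48 h were higher as deposited, against 42.1% and 46.2% with FPKM rescaled to equal sums, 42.6% and 42.7% under quantile normalization, and 43.1% and 40.1% after median centring. At the edge of the 2-fold limit stood Lpin1 (1.01) and Epha4 (1.01) inside and Cpt2 (0.997) and S1pr2 (0.997) outside, with Pa2g4 (-0.998) and Spire1 (-0.998) just outside on the lower side.

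**Figure D1:**
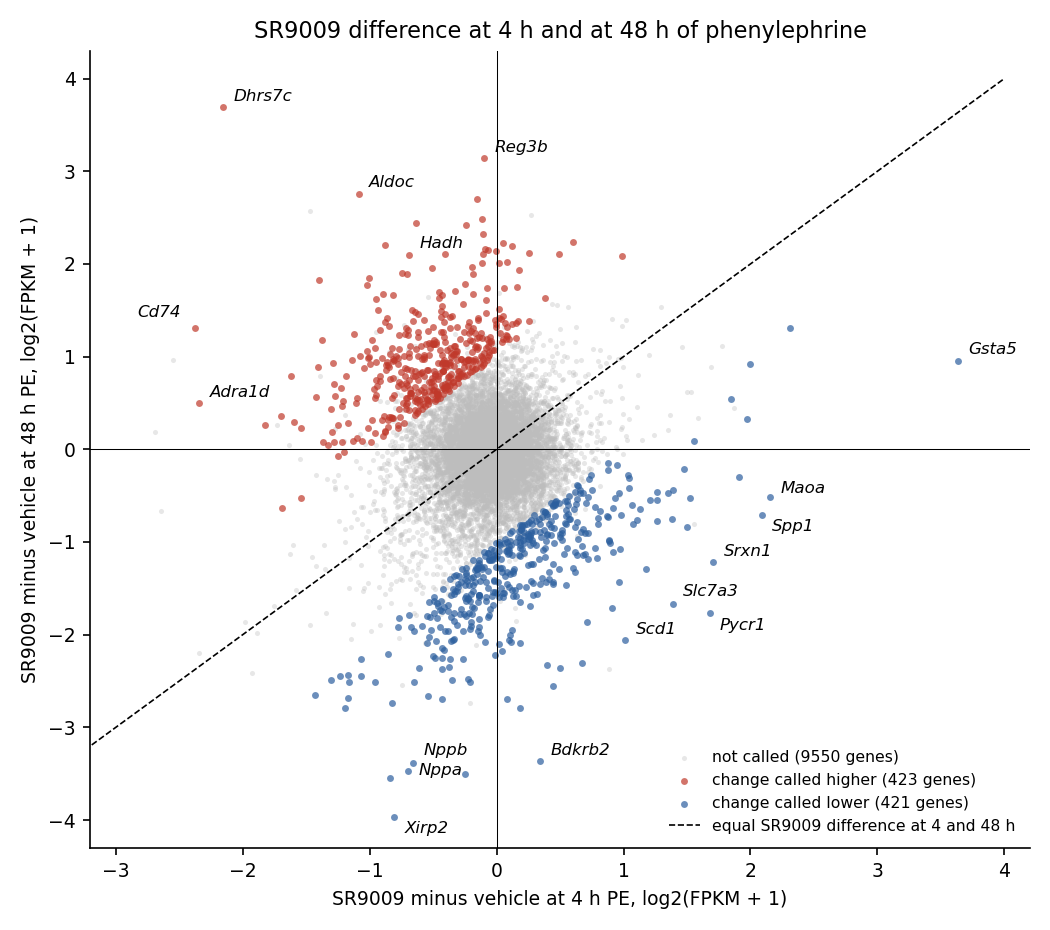
SR9009 minus vehicle difference at 4 h of PE (x axis) and at 48 h (y axis), both on log2(FPKM + 1), for 10394 genes; each point is 1 gene, red where the change was called higher (423) and blue where it was called lower (421). Vertical distance from the dashed line of equal differences is the change, which is 5.85 for Dhrs7c and -3.70 for Bdkrb2.

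The change also equals the 48 h minus 4 h difference with SR9009 minus that in vehicle, so the arm that moved can be named. Of the 421 genes called lower, 203 were called higher with time in vehicle alone, 75 were called lower with time under SR9009 alone, 11 were called in opposite directions in the 2 arms, and 124 were called in neither. Of the 423 called higher, 105 were called lower with time in vehicle alone, 112 were called higher with time under SR9009 alone, 10 were opposite and 192 were called in neither. Over all genes used, 48 h against 4 h was called higher for 3.85% and lower for 2.34% in vehicle, and higher for 2.48% and lower for 2% with SR9009. The time differences of the arms make up the change, so larger shares among its called genes follow in part from the rule.

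At 48 h alone, 266 of the 421 genes called lower had an SR9009 difference called lower, with no call at 4 h. Another 25 were called higher at 4 h with no call at 48 h. Of the 423 called higher, 168 had a difference called higher only at 48 h and 37 a difference called lower only at 4 h, while 208 were called at neither time. Both differences enter the change, so these counts follow in part from how genes were called.

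At 0 h the called genes leaned the opposite way from where the 48 h difference went, but this is no separate support. Their calls rest in part on the 4 h difference, with a median of 0.12 for genes called lower and -0.49 for genes called higher. Across genes the 0 h difference follows the 4 h one (r 0.59). The lean at 0 h therefore follows at least in part from how genes were called, although its libraries do not enter the change. Before PE, 272 of 420 genes called lower (64.8%) stood above 0 for SR9009 against vehicle, with a median of 0.13. Among genes called higher, 72 of 421 (17.1%) stood above 0, with a median of -0.34. Over all genes used, 47.1% stood above 0, with a median of -0.02.

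**Figure D2:**
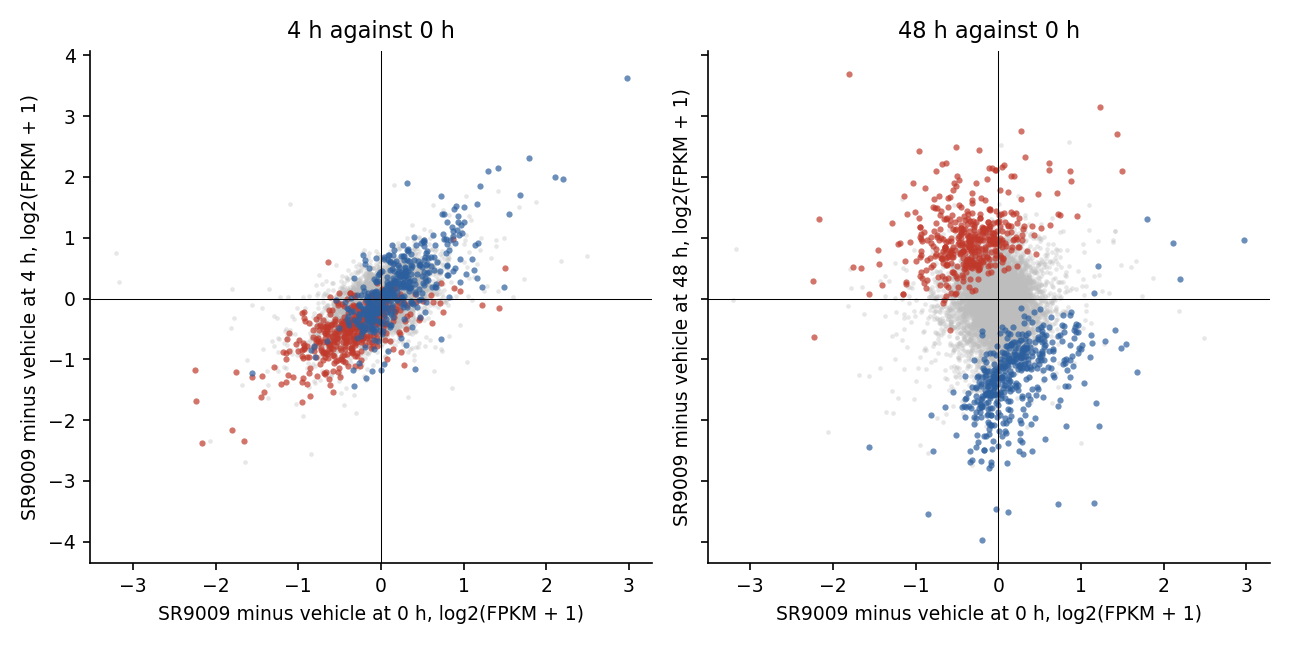
SR9009 minus vehicle at 4 h (left) and at 48 h (right) against the same difference at 0 h, all on log2(FPKM + 1), 1 point per gene, red for a change called higher and blue for one called lower. The left cloud follows a diagonal (r 0.59), while on the right the red genes sit mostly up and to the left and the blue genes mostly down and to the right. Colours were set by the 4 h and 48 h differences, so the places of red and blue genes follow in part from that choice.

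The hypertrophy-associated list moved to lower values. Of its 16 genes used, 7 were called lower and none higher, beside 4.05% and 4.07% of all genes, and the median change was -0.70 beside 0.01 for all genes. SR9009 already stood below vehicle at 4 h for 15 of the 16, with a median difference of -0.67, and at 48 h for all 16, with a median of -1.69.

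Nppa (chr5:164808407-164809716, rn6), which encodes atrial natriuretic peptide, was at 184 FPKM with vehicle and 181 with SR9009 at 0 h. It was at 716 and 440 at 4 h, and at 19205 and 1734 at 48 h. The SR9009 difference went from -0.70 to -3.47, a change of -2.77 (-3.67 to -1.82). SR9009 cultures still climbed between 4 and 48 h, but from a similar start they reached a level far below vehicle.

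Nppb (chr5:164796229-164797531, rn6), the brain natriuretic peptide gene next to it, was at 105 and 175 FPKM at 0 h. At 4 h it was at 1208 with vehicle and 763 with SR9009, and at 48 h at 5588 and 534. The change was -2.72 (-3.55 to -1.89). Unlike Nppa, its SR9009 value was lower at 48 h than at 4 h.

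Xirp2, an actin-binding protein of the intercalated disc, had a change of -3.16 (-3.99 to -2.31). Its FPKM was 15.8 with vehicle and 8.64 with SR9009 at 4 h, and 252 and 15.2 at 48 h. The intermediate filament gene Nes rose with vehicle as well, but unlike Xirp2 it was not higher at 48 h than at 4 h with SR9009. Nes went from 4.49 and 4.64 FPKM at 4 h to 19.7 and 3.58 at 48 h, a change of -2.22. Csrp3, which encodes the Z-disc protein MLP, went from 981 and 790 FPKM to 1643 and 442, a change of -1.58.

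Skeletal actin, Acta1, was at 387 FPKM with vehicle and 320 with SR9009 at 0 h, at 1536 and 692 at 4 h, and at 3129 and 754 at 48 h. Its difference of -1.15 at 4 h was already larger than that of Nppa, and the further change of -0.90 (-1.75 to -0.06) stayed under the 2-fold limit. The myosin heavy chain genes could not be followed, because Myh7 has no estimate in either 48 h group and Myh6 has none with vehicle at 4 h or with SR9009 at 48 h.

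Promoter stretches of Nppb and Acta1 are shown because these fetal program genes carry an M-CAT element (CATTCC, searched on both strands), which TEAD factors are known to bind. All promoter sequences here come from RefSeq on GRCr8, a newer build than the authors' rn6, and each is the 150 bases before the annotated start, read 5′ to 3′ on the gene's strand. Capitals mark the match, written CATTCC or, on the other strand, GGAATG. Nppb lies at chr5:163699858-163700007 on the + strand and Acta1 at chr19:68784195-68784344 on the - strand.
Nppb: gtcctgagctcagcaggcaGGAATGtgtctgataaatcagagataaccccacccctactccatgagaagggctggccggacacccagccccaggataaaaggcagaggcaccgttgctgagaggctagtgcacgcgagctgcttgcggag
Acta1: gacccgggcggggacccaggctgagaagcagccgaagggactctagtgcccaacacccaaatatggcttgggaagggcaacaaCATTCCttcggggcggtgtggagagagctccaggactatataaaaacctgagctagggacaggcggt
In the window from 250 bases before to 50 after the start, CATTCC was found in 14.2% of all 33469 promoters and 11.2% of the 8431 of genes used, in 4 of the 11 hypertrophy-associated genes with a promoter, in 8.73% of genes called lower and in 16.4% of genes called higher. The matches describe the sequence and do not show that a factor was bound.

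Cell cycle genes gave the same picture from a flatter start. Of 34 genes used, 15 were called lower and none higher, the median change was -1.02, and 33 of 34 changes were below 0. At 4 h no member was called for SR9009 and the median difference was -0.18. At 48 h 20 members were called lower for SR9009, beside 4.56% of all genes, and the median was -1.25. Vehicle cultures gained a median of 1.22 between 4 and 48 h and SR9009 cultures 0.22.

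Rrm2, the small subunit of ribonucleotide reductase, which supplies deoxynucleotides for replication, was at 23.9 FPKM with vehicle and 20.2 with SR9009 at 4 h and at 133 and 23.1 at 48 h. Its change was -2.25 (-3.06 to -1.45). Top2a, the replication-linked DNA topoisomerase, went from 8.82 and 6.29 FPKM to 38.6 and 7.34, a change of -1.82. Cdk1, the mitotic kinase, went from 19.1 and 15.6 FPKM to 55.1 and 16.0, a change of -1.45.

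Cdc20, an activator of the anaphase-promoting complex, went from 12.5 and 12.6 FPKM to 39.2 and 12.8, a change of -1.55. In these 4 genes the SR9009 cultures stood at nearly the same level at both times and the vehicle cultures moved. Which cells carried these transcripts cannot be read from bulk RNA, where more cells of a type and more RNA per cell cannot be told apart.

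Promoters of Top2a, Cdc20 and Cdk1 are shown because they share letters typical of genes expressed in mitosis: the cell cycle homology region (TTTGAA or TTCAAA) and the CCAAT box (CCAAT or ATTGG), both in capitals and nowhere overlapping each other. They lie at chr10:84473094-84473243 (- strand), chr5:137255800-137255949 (- strand) and chr20:19265143-19265292 (+ strand) of GRCr8.
Top2a: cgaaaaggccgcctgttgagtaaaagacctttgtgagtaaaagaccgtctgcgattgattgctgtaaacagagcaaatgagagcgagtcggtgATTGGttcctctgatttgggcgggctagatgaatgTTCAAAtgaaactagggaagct
Cdc20: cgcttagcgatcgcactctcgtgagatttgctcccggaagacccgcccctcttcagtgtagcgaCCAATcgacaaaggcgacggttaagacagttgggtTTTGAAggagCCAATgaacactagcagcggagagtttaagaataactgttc
Cdk1: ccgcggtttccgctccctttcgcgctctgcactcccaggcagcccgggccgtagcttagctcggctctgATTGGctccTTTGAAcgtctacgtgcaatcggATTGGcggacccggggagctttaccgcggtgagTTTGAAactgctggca
TTTGAA was found in 10 of 25 cell cycle promoters, in 21.7% of promoters of genes called lower, in 11.1% of those called higher, in 11.4% of those of genes used and in 18.3% of all promoters. CCAAT was found in 19 of the 25, in 46.4% of those called lower, in 38.9% of those called higher, in 37.7% of those of genes used and in 37.5% of all promoters.

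Sterol synthesis was the most uniform list. All 21 genes used stood above 0 for SR9009 at 4 h and below 0 at 48 h, with medians of 0.52 and -1.05, and 18 of the 21 changes were called lower. The median change was -1.55. These genes answer to SREBP2, which is released when sterol in the endoplasmic reticulum falls.

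Fdps, which makes farnesyl diphosphate, was at 200 FPKM with vehicle and 273 with SR9009 at 4 h, and at 979 and 356 at 48 h, a change of -1.90 (-2.75 to -1.05). Idi1, which isomerises isopentenyl diphosphate, went from 74.9 and 102 FPKM to 207 and 76.4, a change of -1.87. Acat2, the cytosolic acetoacetyl-CoA thiolase, went from 24.3 and 40.7 FPKM to 76.4 and 33.0, a change of -1.90. In all 3 the vehicle cultures moved up by more than 2-fold, while Idi1 and Acat2 were lower at 48 h than at 4 h with SR9009.

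Fatty acid and triglyceride synthesis genes moved less uniformly, with a median of -0.84. Of 15, 3 were called lower and 1 higher, beside 4.05% and 4.07% of all genes. Scd1, the stearoyl-CoA desaturase (chr1:264160129-264172729, rn6), was at 8.56 FPKM with vehicle and 18.3 with SR9009 at 4 h and at 85.4 and 19.8 at 48 h. Its difference was called higher at 4 h (1.01) and lower at 48 h (-2.06), a change of -3.07 (-3.82 to -2.32). Scd2 (-1.60) and Fasn, the fatty acid synthase gene (-1.13), had the same direction, and the lipin gene Lpin1 had the opposite one (1.01).

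The stress list, which joins amino acid response and unfolded protein genes, changed sign. All 28 changes were below 0 and 14 were called lower. The median difference was 0.36 at 4 h and -0.68 at 48 h, and 22 of the 28 went from above 0 to below 0. Here both arms contributed: the median 48 h minus 4 h difference was 0.37 in vehicle and -0.67 with SR9009.

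Asns, asparagine synthetase and an ATF4 target, was at 35.5 FPKM with vehicle and 67.0 with SR9009 at 0 h. At 4 h it was at 34.4 and 66.0, and at 48 h at 51.7 and 23.5. The change was -2.02 (-2.87 to -1.17). The 0 h and 4 h values were almost the same, so the early SR9009 difference of this gene was present before PE.

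Slc3a2, the heavy chain shared by several amino acid transporters, went from 140 and 337 FPKM to 139 and 80.8, a change of -2.03. Its vehicle level was nearly the same at both times. Mthfd2, a mitochondrial one-carbon enzyme, went from 61.0 and 89.6 FPKM to 81.1 and 28.8, a change of -2.01. Sdf2l1, an endoplasmic reticulum chaperone cofactor, went from 15.4 and 42.0 FPKM to 23.8 and 17.4, a change of -1.82.

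The proline synthesis gene Pycr1 showed the second largest negative change, -3.44 (-5.12 to -1.93). It was at 3.87 FPKM with vehicle and 14.6 with SR9009 at 4 h and at 8.57 and 1.81 at 48 h. Slc7a3, a transporter of arginine and lysine, went from 9.14 and 25.5 FPKM to 20.3 and 5.72, a change of -3.06 (-3.93 to -2.21). Both were called higher at 4 h and lower at 48 h.

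Mthfd2 is shown for its CCAAT boxes (CCAAT or ATTGG, in capitals), which the factor NF-Y is known to bind. It lies at chr4:117380351-117380500 on the - strand of GRCr8.
Mthfd2: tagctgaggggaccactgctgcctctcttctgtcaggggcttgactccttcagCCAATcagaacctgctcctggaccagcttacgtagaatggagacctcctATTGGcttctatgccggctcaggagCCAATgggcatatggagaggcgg
CCAAT was found in 19 of the 27 stress-list promoters and in 11 of 14 sterol-list promoters, beside 37.7% of promoters of genes used and 37.5% of all promoters.

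NRF2 antioxidant genes lost an early SR9009 difference. All 20 stood above 0 at 4 h, 6 of them called higher beside 0.481% of all genes, with a median of 0.92. The median at 48 h was -0.25. The change was called lower for 9 and higher for none, with a median of -1.01. Vehicle was nearly level between the 2 times (median 0.09) and SR9009 was lower at the later one (median -0.73).

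Srxn1, sulfiredoxin (chr3:147608850-147614410, rn6), was at 15.4 FPKM with vehicle and 51.5 with SR9009 at 0 h, at 15.3 and 52.2 at 4 h, and at 34.0 and 14.1 at 48 h. The change was -2.92 (-3.72 to -2.13), and its call went from higher to lower. Txnrd1, thioredoxin reductase, went from 119 and 275 FPKM to 97.3 and 66.2, a change of -1.76. Hmox1, heme oxygenase, went from 30.6 and 61.1 FPKM to 76.7 and 35.8, a change of -2.05.

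Ferritin heavy chain did not follow: Fth1 stood at 0.96 and 0.97 at the 2 times, a change of 0.01. Nqo1, a quinone reductase shared with the aryl hydrocarbon receptor targets, stood at 1.77 and 1.12, a change of -0.66 that was not called. None of the 5 targets of that receptor had a called change, but all 5 stood above 0 for SR9009 at both times. Their medians were 0.31 at 4 h and 1.12 at 48 h, where 3 were called higher for SR9009, beside 2.29% of all genes. The autophagy receptor gene Sqstm1, also an NRF2 target, went from 165 and 399 FPKM to 297 and 203, a change of -1.81.

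Changes of glutathione transferase and metallothionein genes split, with 4 called higher, 4 lower and a median of 0.10. SR9009 itself stood above vehicle for 16 of 19 at 4 h and for 16 at 48 h, with medians of 0.69 and 0.90. Gsta5 was at 3.59 FPKM with vehicle and 55.9 with SR9009 at 4 h, and at 0.425 and 1.77 at 48 h, a change of -2.68 (-5.02 to -1.0). Gstm2 went from 88.4 and 77.3 FPKM to 45.9 and 182, a change of 2.16. The members of each of these families are similar in sequence, so how the authors' counting divided shared reads bears on both values.

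**Figure D3:**
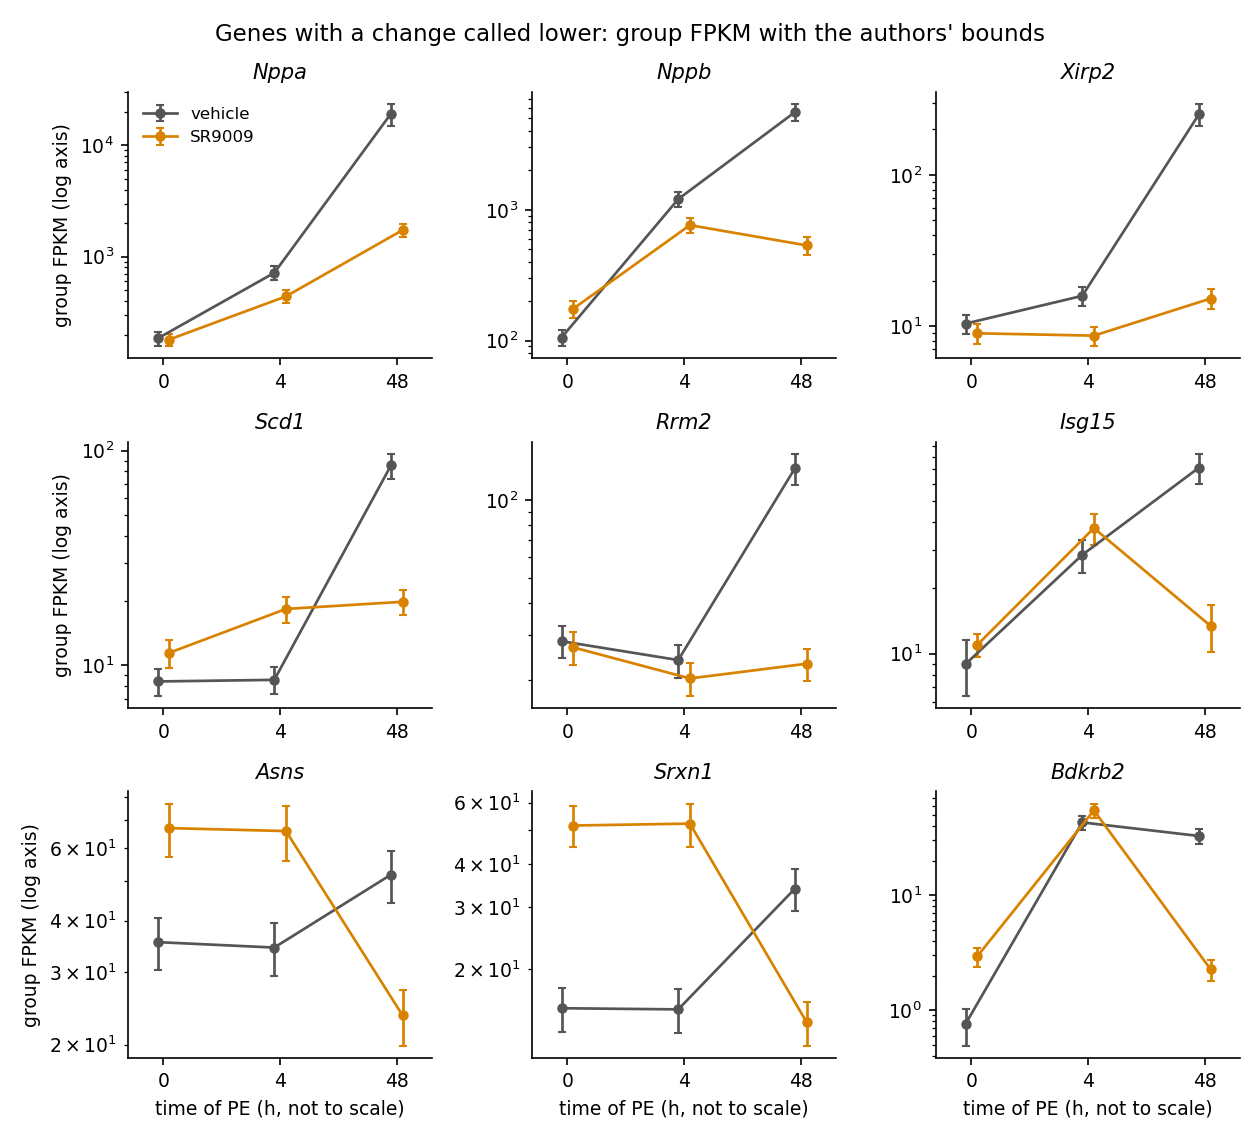
Group FPKM (log axis) at 0, 4 and 48 h of PE for 9 genes with a change called lower, vehicle in grey and SR9009 in orange; bars are the authors' bounds on each group value. In Nppa, Xirp2 and Rrm2 the vehicle line climbs away from SR9009 after 4 h, while in Asns and Srxn1 the lines cross, as Srxn1 goes from 52.2 to 14.1 FPKM with SR9009.

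Interferon-stimulated genes were called lower for 4 of 19 and higher for none, with a median of -0.33. Isg15, a ubiquitin-like modifier, was at 28.4 FPKM with vehicle and 37.6 with SR9009 at 4 h and at 71.3 and 13.4 at 48 h, a change of -2.72 (-3.77 to -1.72). Rsad2, which encodes viperin, went from 1.14 and 2.41 FPKM to 6.85 and 0.58, a change of -2.98. Ifit3 went from 1.20 and 2.11 FPKM to 7.86 and 0.730, a change of -2.86. The last 2 had low levels, and with genes under a mean of 5 FPKM left out only 1 member of the list was called lower.

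Signalling genes included the most negative change of all. Bdkrb2, the bradykinin B2 receptor (chr6:129399468-129429676, rn6), was at 0.759 FPKM with vehicle and 2.94 with SR9009 at 0 h, at 42.9 and 54.6 at 4 h, and at 32.7 and 2.27 at 48 h. Its change was -3.70 (-4.54 to -2.87). Both arms had a high level at 4 h, and only vehicle was still high at 48 h.

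Among α1-adrenergic receptors, through which PE acts, Adra1d went from 13.3 FPKM with vehicle and 1.82 with SR9009 at 4 h to 7.94 and 11.6 at 48 h, a change of 2.84 (1.90 to 3.82). Adra1b went from 13.6 and 9.77 FPKM to 6.87 and 21.1, a change of 1.93. Adra1a had the opposite direction and was not called, from 14.3 and 13.9 FPKM to 19.9 and 10.7, a change of -0.81 (-1.78 to 0.15). The endothelin receptor gene Ednra went from 36.5 and 20.0 FPKM to 24.2 and 50.4, a change of 1.86. In the whole growth factor and receptor list 5 of 29 were called higher and 5 lower.

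Pleiotrophin, Ptn, a secreted heparin-binding growth factor, was at 60.2 FPKM with vehicle and 29.5 with SR9009 at 4 h and at 14 and 53.2 at 48 h, a change of 2.86 (2.04 to 3.68). Gdf15 and Inhba, both of the TGF-β family, were called lower: Gdf15 went from 46.5 and 91.5 FPKM to 105 and 38.4 (-2.40), and Inhba, an activin subunit gene, from 10.4 and 11.2 to 22.9 and 4.75 (-2.15). In the matrix and TGF-β list 5 of 27 were called lower and 1, elastin (Eln, 1.69), higher, beside 4.05% and 4.07% of all genes. Osteopontin, Spp1, outside the lists, went from 37.3 and 162 FPKM to 55.2 and 33.5 (-2.79).

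Immediate early genes had a list median near 0 (-0.06). Of 25, 3 were called lower and 1 higher, beside 4.05% and 4.07% of all genes. SR9009 stood below vehicle for 24 of the 25 at 4 h and for 22 at 48 h. Myc was an exception, at 7.20 FPKM with vehicle and 8.31 with SR9009 at 4 h and at 17.6 and 3.38 at 48 h, a change of -2.27 (-3.17 to -1.41). Atf3, a stress-induced repressor, went from 15.1 and 6.22 FPKM to 22.6 and 3.15 (-1.35). Of 15 ERK feedback and dual-specificity phosphatase genes 2 were called lower and none higher, beside the same shares of all genes.

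Contractile and calcium-handling genes moved to higher values. Of 25, 9 were called higher and 1 lower, beside 4.07% and 4.05% of all genes, and the median change was 0.61. SR9009 stood below vehicle for 24 of them at 4 h, with a median of -0.56, and above vehicle for 15 at 48 h, with a median of 0.14. Vehicle cultures went down by a median of -0.27 between the times and SR9009 cultures up by 0.34.

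Dhrs7c, a short-chain dehydrogenase of the sarcoplasmic reticulum (chr10:54352270-54370653, rn6), had the largest change in the table. It was at 69.0 FPKM with vehicle and 19.1 with SR9009 at 0 h, at 50.5 and 10.6 at 4 h, and at 1.76 and 34.6 at 48 h. The change was 5.85 (4.70 to 7.17). Vehicle was high at 0 and 4 h and low at 48 h, and SR9009 was lowest at 4 h.

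Ryr2, the ryanodine receptor that releases calcium from the sarcoplasmic reticulum, was at 142 and 77.7 FPKM at 0 h, at 159 and 71.6 at 4 h and at 93.0 and 183 at 48 h, a change of 2.11 (1.23 to 2.98). Atp2a2, the calcium pump SERCA2, was at 2876 and 1539 FPKM at 4 h and at 908 and 1803 at 48 h, a change of 1.89 (0.74 to 3.0). Hrc, a calcium-binding protein of the same compartment, went from 33.5 and 18.0 FPKM to 10.6 and 30.0, a change of 2.28.

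Casq1, the skeletal muscle calsequestrin, was the exception in the list, going from 26.6 and 14.4 FPKM to 321 and 26.6 (-2.70), while the cardiac form Casq2 was called higher (1.15). Myl7, the atrial light chain, was called higher (1.26), whereas Myl2, Tnnc1 and Actc1 had changes of -0.17, -0.09 and -0.38 that were not called.

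Among ion channel and gap junction genes 6 of 19 were called higher, 1 lower, and the median was 0.75, with 18 of 19 above 0 at 48 h against 3 at 4 h. Gja5, connexin 40, was at 24.0 FPKM with vehicle and 22.2 with SR9009 at 4 h and at 6.95 and 31.1 at 48 h, a change of 2.12 (1.32 to 2.93). The potassium channel genes Kcnh2 (1.40), Kcnj11 (1.37) and Kcnj2 (1.23) were called higher as well. Scn3b, a sodium channel β subunit, went from 1.05 and 0.729 FPKM to 23.9 and 1.19, a change of -3.26 (-4.01 to -2.50).

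Fatty acid oxidation genes stood near 0 for SR9009 at 4 h (median -0.01) and above 0 for all 24 at 48 h (median 0.73). The change was called higher for 5 and lower for none, with a median of 0.70 and 23 of 24 above 0. Hadh, the short-chain hydroxyacyl-CoA dehydrogenase, was at 112 FPKM with vehicle and 69.1 with SR9009 at 4 h and at 25.3 and 112 at 48 h, a change of 2.79 (1.98 to 3.60). Ech1, which isomerises unsaturated acyl-CoA, went from 117 and 111 FPKM to 42.1 and 190, a change of 2.22 (1.38 to 3.06).

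Of 26 oxidative phosphorylation genes 1 was called higher, a share close to the 4.07% of all genes, and none lower. The list median was 0.61, and all 26 values lay above 0, 23 of them with an SR9009 difference below 0 at 4 h and above 0 at 48 h. Cox8b, a subunit of cytochrome oxidase found in muscle and brown fat, was the called member, from 1450 and 1074 FPKM to 532 and 1554 (1.98). No cytoplasmic ribosomal protein gene of 16 and no proteasome subunit gene of 25 was called, with list medians of -0.55 and -0.38. Of 19 ribosome biogenesis genes 2 were called lower, beside 4.05% of all genes, with a median of -0.64. FPKM are shares of a whole, so movement of abundant genes bears on all others, and how libraries were scaled is not stated.

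Of 21 glycolysis genes 5 were called higher and 2 lower, beside 4.07% and 4.05% of all genes, with a median of -0.08. Aldoc, aldolase C, was at 80.3 and 97.5 FPKM at 0 h, at 67.2 and 31.1 at 4 h and at 24.0 and 168 at 48 h, a change of 3.84 (3.0 to 4.69). The muscle isoforms Pgam2 (2.18) and Pfkm (1.51) were called higher and the platelet phosphofructokinase gene Pfkp lower, from 159 and 140 FPKM to 380 and 115 (-1.54). Of 15 inflammatory genes 3 were called higher and 1, Ptgs2 (-1.71), lower, beside the same shares of all genes. Reg3b of that list, a secreted lectin induced by gp130 cytokines, went from 1458 and 1360 FPKM to 246 and 2181, a change of 3.24 (2.37 to 4.11).

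**Figure D4:**
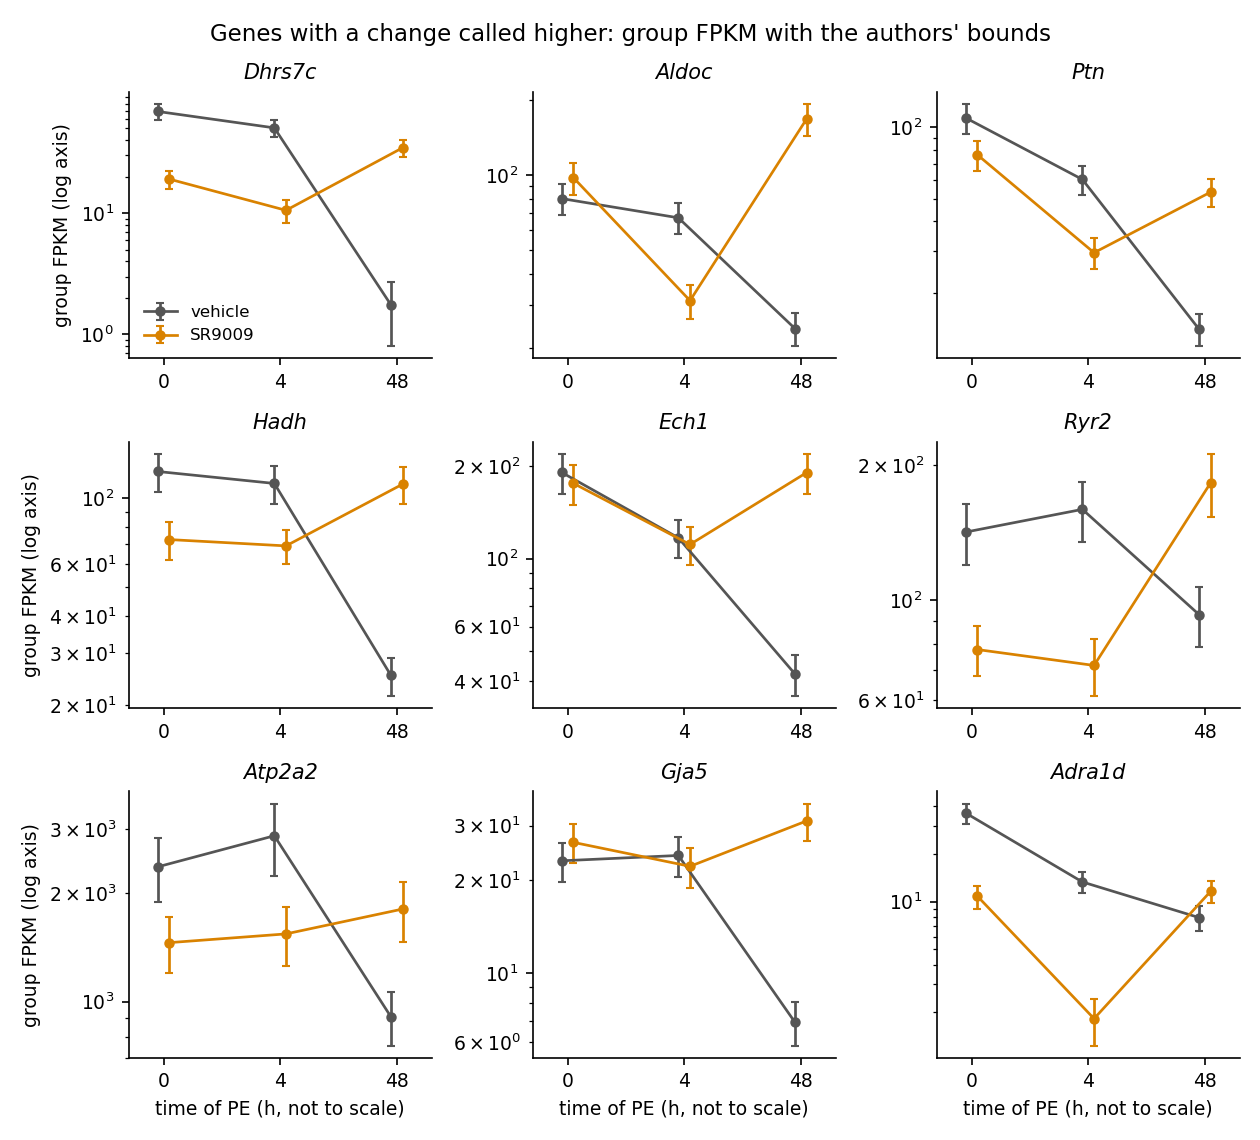
Group FPKM (log axis) at 0, 4 and 48 h of PE for 9 genes with a change called higher, vehicle in grey and SR9009 in orange; bars are the authors' bounds on each group value. Vehicle falls below SR9009 by 48 h in all 9, most in Dhrs7c (1.76 against 34.6 FPKM). At 4 h SR9009 stands below vehicle in all 9, but with overlapping bounds in Ech1 (117 with vehicle, 111 with SR9009) and Gja5 (24.0 and 22.2).

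Cell-cycle brake and atrophy genes went both ways, with 3 of 21 called higher and 4 lower. Cdkn1c, the p57 inhibitor of cyclin-dependent kinases, was at 45.3 FPKM with vehicle and 47.0 with SR9009 at 4 h and at 9.37 and 47.5 at 48 h, a change of 2.17 (1.5 to 2.85). Gadd45g, a stress-induced growth arrest gene, went from 301 and 131 FPKM to 301 and 42.7 (-1.60). Cdkn1c stood level with SR9009 and moved with vehicle, and Gadd45g the reverse.

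Among the 15 clock genes, which hold the best known REV-ERB targets, the median change was -0.15. The change of 1 was called lower and none higher, beside 4.05% and 4.07% of all genes. That gene was Ciart (-1.69, from 1.72 and 2.27 FPKM to 5.78 and 1.54). At 48 h itself SR9009 was called lower for 4 of the 15, beside 4.56% of all genes, and at 4 h for none. At a limit of 1.5-fold 4 of the 15 changes were called lower. Arntl was at 20.0 FPKM with vehicle and 17.2 with SR9009 at 4 h and at 13.3 and 5.89 at 48 h, a change of -0.84 (-1.66 to -0.02). Nfil3 was at 31.2 and 27.7 FPKM and then at 27.9 and 12.6, a change of -0.92 (-1.76 to -0.08). The SR9009 difference of both was called lower at 48 h (-1.05 for Arntl and -1.09 for Nfil3) and was not called at 4 h (-0.21 and -0.16), while the change of neither reached the 2-fold limit.

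The receptors themselves were not called. Nr1d1, which encodes REV-ERBα, was at 15.2 and 11.2 FPKM at 4 h and at 17.7 and 13.4 at 48 h, a change of 0.03 (-2.02 to 1.95). Its locus overlaps Thra on the opposite strand, and whether the counting used strand is not stated. Nr1d2, REV-ERBβ, had a change of 0.48 (-0.25 to 1.21).

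Arntl is shown because it carries the REV-ERB half-site TAGGTCA, in capitals, close to its start. The stretch lies at chr1:176766178-176766327 on the + strand of GRCr8.
Arntl: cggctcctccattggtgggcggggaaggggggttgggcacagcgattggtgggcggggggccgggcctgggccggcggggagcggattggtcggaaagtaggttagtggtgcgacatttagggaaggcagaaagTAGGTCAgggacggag
TAGGTCA or its reverse complement was found in 2.63% of all promoters, in 1.76% of those of genes used, in 6 of 332 of genes called lower (1.81%) and in 4 of 324 of genes called higher (1.23%). The window is short, and no match says only that these letters are not in it.

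**Figure D5:**
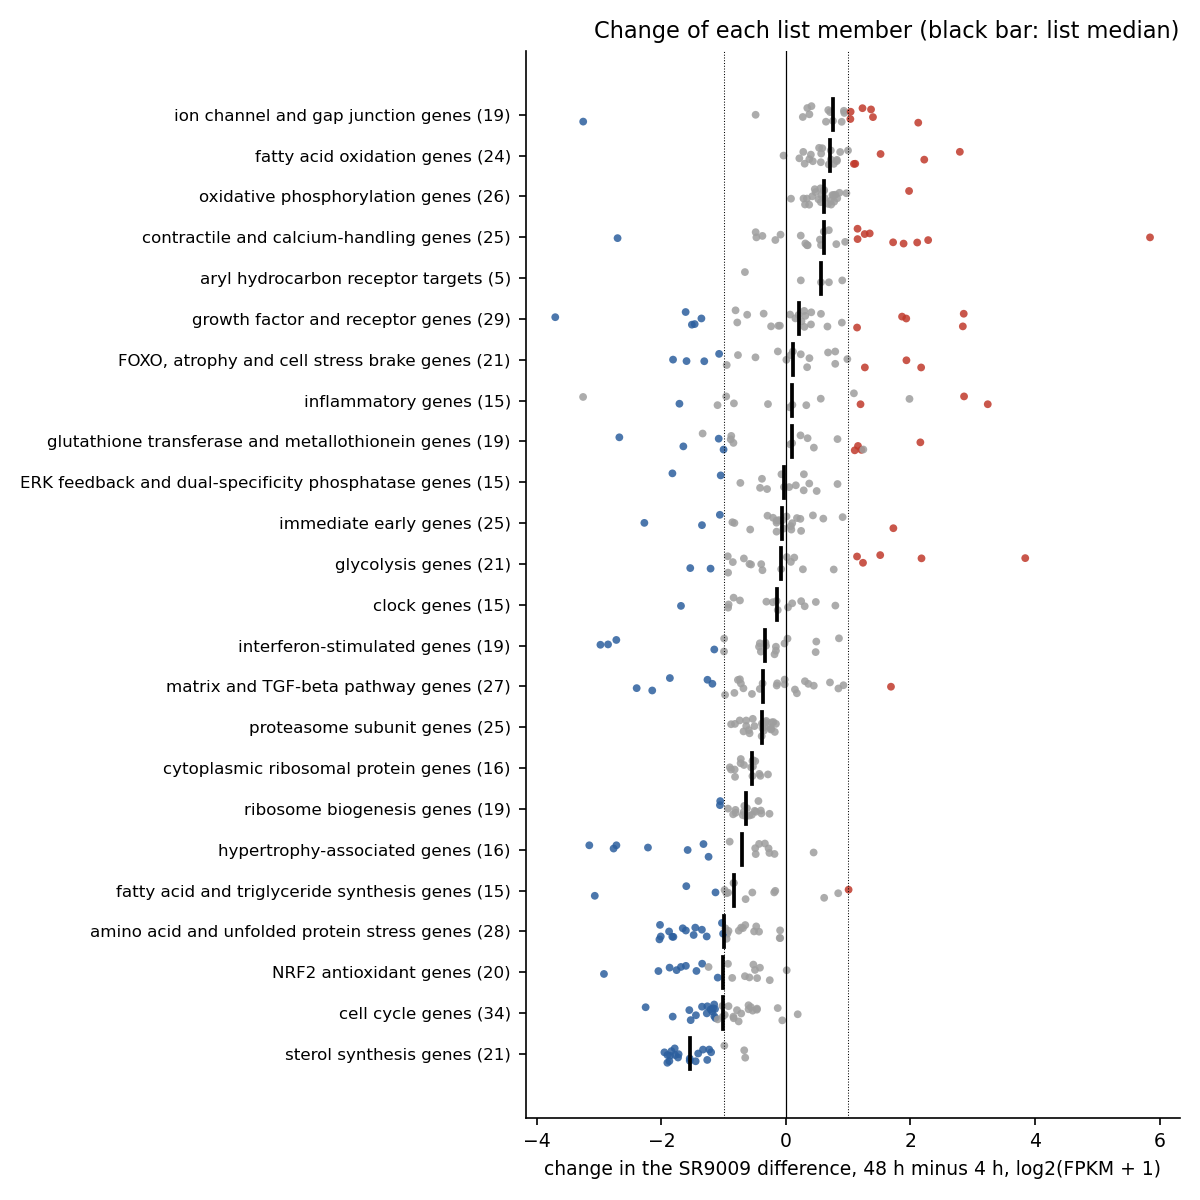
Change in the SR9009 difference, 48 h minus 4 h, on log2(FPKM + 1), for each gene of 24 lists (number of genes used in brackets), red or blue where called higher or lower and grey where not, with a black bar at the list median and dotted lines at the 2-fold limit. Lists run from sterol synthesis (median -1.55) at the bottom to ion channels (median 0.75) at the top.

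Markers of other cell types moved with these results in part. Of 9 fibroblast markers used, 4 were called higher and none lower, with a median change of 0.92: Lum (1.87), Pdgfra (1.57), Dpt (1.51) and Dcn (1.36). Lum was at 62.3 FPKM with vehicle and 46.6 with SR9009 at 4 h, and at 18.1 and 51.6 at 48 h. The summed FPKM of the list was 1656 and 1347 at 4 h and 1732 and 1828 at 48 h.

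Smooth muscle markers had 1 of 9 called higher and 1 lower, beside 4.07% and 4.05% of all genes. Their sum was 2661 and 1719 FPKM at 4 h and 4633 and 2116 at 48 h. Of 7 endothelial and 8 macrophage markers none had a change called in either direction, and their sums did not exceed 58.3 and 34.9 FPKM in any of the 4 groups. SR9009 itself stood below vehicle for all 8 macrophage markers at 4 h (median -0.82, 3 called lower beside 1.01% of all genes). At 48 h it did so for 7 of them (median -0.46, 1 called lower beside 4.56% of all genes). Of 9 cardiomyocyte markers 1 was called higher, Ryr2, and the list's sum was 33866 and 23179 FPKM at 4 h and 38305 and 25892 at 48 h. The markers Col1a2, Vwf, C1qb, Cd163 and Sox10 averaged under 1 FPKM, and none of 3 Schwann or neuronal and 3 erythroid markers used had a called change. At 4 h, however, SR9009 itself was called higher for 2 of the 3 erythroid markers, beside 0.481% of all genes. It stood above vehicle for all 3 at both times, with median differences of 1.11 at 4 h and 0.81 at 48 h. None of the 3 was called for SR9009 at 48 h. The part of other cells in the gene groups above was not tested.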

How the data were processed

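Libraries were made with a kit for stranded mRNA, per the protocols in the labels. FastQC, Trim Galore, TopHat and Cuffdiff and the rat build rn6 are named, with no versions, per the submitters' processing notes. The deposited table gives FPKM per gene and group, with lower and upper bounds and a status, and neither the level of these bounds nor the way libraries were scaled is stated there. Of 10545 genes whose 6 group values averaged 1 FPKM or more, 5 had no estimate in at least 1 of the 4 groups, 130 were listed at 0 in at least 1 (mostly microRNA genes) and 16 lay outside their own bounds, which left 10394.

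Differences were taken on log2(FPKM + 1) in Python 3.11.15 with pandas 2.3.3 and numpy 2.4.6, and the computation was tested on simulated data. A difference was called at 2-fold or more with a range from the bounds that excluded 0. The planned limma fit needs values per library and was not run. Sums of group FPKM ran from 656724 to 710198 over the 4 groups.

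Genes named in the text were the 12 largest called changes per direction with at least 5 FPKM in 1 of the 4 groups, up to 5 largest members of each list with at least 3 called, up to 8 per direction called oppositely at 4 and 48 h, and Nppa, Nppb, Acta1, Myh6, Myh7, Nr1d1, Nr1d2, Arntl and Nfil3. Other list members, the cell type markers and Ciart were named after their values were seen. The lists and genes were chosen with earlier results of these data known. Promoters came from RefSeq (GRCr8), where 8431 of the genes used matched, 7905 by symbol and 526 by synonym. Alternatives were a pseudocount of 0.1, no filter or a mean of at least 5 FPKM, equal sums, quantile normalization, median centring, ranges combined as the root of summed squares, and a limit of 1.5-fold. Some items are not reported here.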

Additional observations from a re-analysis of the deposited data

Results flagged for a closer look

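In 15 genes the SR9009 difference was called one way at 4 h and the other way at 48 h. With 1 value per group the difference between the times was not tested. In 10 of them SR9009 stood below vehicle at 4 h and above it at 48 h: Dhrs7c had a change of 5.85, Aldoc of 3.84, Cd74 of 3.69, Atp6ap1l of 3.23 and Ptn of 2.86. In the same direction, Dgkb had a change of 2.80, Pdzd2 of 2.56, Ckmt2 of 2.37, Fitm1 of 2.09 and Sdpr of 2.08. In the other 5 SR9009 stood above vehicle at 4 h and below it at 48 h: the change was -2.47 for Fkbp11, -2.92 for Srxn1, -3.06 for Slc7a3, -3.07 for Scd1 and -3.44 for Pycr1.

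Cd74, the invariant chain of antigen presentation, was at 21.9 FPKM with vehicle and 3.42 with SR9009 at 4 h and at 3.34 and 9.77 at 48 h. Ckmt2, the mitochondrial creatine kinase of muscle, went from 39.5 and 17.6 FPKM to 15.8 and 38.8. Fkbp11, a prolyl isomerase of the secretory pathway, went from 18.6 and 43.3 FPKM to 30.1 and 11.7. With a pseudocount of 0.1 there were 29 such genes, among them all 15, and 146 at 1.5-fold. Under equal sums and under median centring 12 of the 15 were found among 15, and under quantile normalization 10 among 13.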

How the results depend on the processing

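No paired analysis was possible because the table gives 1 value per gene and group, and leaving out a replicate was not run for the same reason. The count of called changes was 844 and ran from 699 (mean of at least 5 FPKM) to 1210 (1.5-fold) over 8 alternatives. Among the 99 named genes, none with a called change reversed direction. Most were chosen for large called changes, so a reversal was unlikely from the start and its absence is no separate support. Named genes without a called change were not checked for it, and with a mean of at least 5 FPKM 92 of the 99 were used. Higher and lower calls were near balance throughout, at 423 and 421, with 405 and 422 under quantile normalization, 418 and 430 after median centring, 603 and 607 at 1.5-fold and 462 and 378 under equal sums. The median of the ERK feedback list, -0.03, was 0.02 under equal sums and 0.05 with a mean of at least 5 FPKM, and with that filter the medians of the aryl hydrocarbon receptor targets (0.56) and endothelial markers (0.24) were -0.05 and -0.10. Genes called for SR9009 at 4 h numbered 155, against 249 with a pseudocount of 0.1 and 736 at 1.5-fold. At 1.5-fold, SR9009 at 48 h was called for 1907 genes (712 at 2-fold), 48 h minus 4 h in vehicle for 1792 (643) and with SR9009 for 1685 (466), since the limit is lower. Of 99 named genes, Gsta5 was no longer called with a pseudocount of 0.1 (-2.09) and Lpin1 under quantile normalization (0.98) and median centring (0.996). Acta1, Arntl and Nfil3 were called at 1.5-fold. With a mean of at least 5 FPKM, 4 interferon-stimulated genes called lower became 1, 5 growth factor and receptor genes became 2 and the 1 clock gene, Ciart, was not used. Of glutathione transferase and metallothionein genes, 4 called lower became 2 under equal sums and quantile normalization and 1 with a pseudocount of 0.1; the 1 oxidative phosphorylation gene called higher became 2 under both scalings. Under equal sums ERK feedback genes called lower went from 2 to 1 and cardiomyocyte markers called higher from 1 to 2. At 1.5-fold, members called lower went from 3 to 7 for fatty acid synthesis, 2 to 6 for ribosome biogenesis, 1 to 4 for clock and 0 to 2 for ribosomal protein genes, and members called higher from 1 to 4 for oxidative phosphorylation and 1 to 2 for cardiomyocyte markers. Inflammatory genes called higher went from 3 to 5 with ranges combined as the root of summed squares. Equal sums moved the median change from 0.01 to 0.06. Unknown depth and the lack of values per library limit every value given.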

Other observations

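Further gene families, chosen after the values were seen, are given as counts. Of 20 cytosolic aminoacyl-tRNA synthetase genes, which charge tRNAs for protein synthesis, 9 had a change called lower and none higher, with a median of -0.96, and 19 of 20 were below 0. Wars was at 33.1 FPKM with vehicle and 62.3 with SR9009 at 4 h and at 55.3 and 26.9 at 48 h, a change of -1.90. Of 15 mitochondrial synthetase genes 1 was called higher, beside 4.07% of all genes, and none lower, with a median of 0.10. Of 14 genes listed for serine, glycine, proline and one-carbon metabolism 12 were called lower, with a median of -1.37. The 14 also hold Slc7a3 (-3.06), the branched-chain aminotransferase gene Bcat1 (-1.89) and Pck2 (-1.19), which lie outside these pathways and were called lower. Several of the 14 belong to the amino acid stress list of the report.

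Genes listed for the breakdown of branched-chain amino acids went the other way, with 7 of 19 called higher, none lower and a median of 0.76. That none was lower depends on the sorting: Bcat1, counted in the list above, was called lower (-1.89). The related aminotransferase gene Bcat2 was counted here and was not called (0.76). Ivd, isovaleryl-CoA dehydrogenase, went from 92.5 FPKM with vehicle and 79.1 with SR9009 at 4 h to 65.5 and 129 at 48 h, a change of 1.19. Creatine genes split: the muscle kinase Ckm (1.88), Ckmt2 (2.37) and Gamt (1.67), which makes creatine, were called higher, and the ubiquitous mitochondrial kinase Ckmt1b (-1.57) and Gatm (-1.22), which makes its precursor, lower. Myoglobin, Mb, went from 1866 and 607 FPKM to 726 and 1257 (2.41), while the fetal atrial light chain Myl4 went from 241 and 124 to 781 and 136 (-1.55).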
